A study of Mus musculus with 6 samples.

Results

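The fibrillar collagens are the chains that build the cable-like collagen fibrils of connective tissue. Genes of this family examined here are Col1a1, Col3a1, Col5a1, Col5a2 and Col11a1, 5 of the 5644 genes with 1 symbol that were tested, which are read by 9 of the 8734 probes of the array (Col5a2 by 3, Col3a1 and Col5a1 by 2 each, Col1a1 and Col11a1 by 1 each). The probes were selected by the gene symbol of the platform annotation, and the 5 genes were chosen by their transgenic ratios, most of which lay well below 0 in these same arrays. Those ratios are therefore given as a description, without a test. The study set airway smooth muscle cells from transgenic 2AR-OE mice against those from nontransgenic (NTG) mice. The transgenic mice overexpress the beta2-adrenergic receptor. Both were primary cultures grown out of pieces of trachea in medium with 20% serum, each dish started from 1 trachea, and RNA was taken at passages 8 to 10; the sources used here do not name the promoter of the transgene, the strain or the age of the mice. Each of 6 two-colour arrays held RNA of transgenic cells beside RNA of NTG cells. The transgenic RNA was in Cy5 on 4 arrays, called 2A, 2B, 1A and 1B after their titles, and in Cy3 on the dye-swapped arrays, 2C and 1C. Arrays with the same number are called a set.

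Values are log2 ratios, where -1 stands for a 2-fold lower signal. The direction is likely transgenic over NTG: on the 4 arrays of the main orientation the first channel is Cy5 and holds the transgenic RNA, although their titles name the NTG RNA first. The ratios of the swapped arrays were taken as already turned to that direction, which no label states. If the ratio runs the other way every sign below is mirrored, and if the swapped ratios were not turned, a sign that both orientations share belongs to the dyes and not to the transgene. The labels do not say whether arrays of a set came from separate cultures or mice, so errors and p-values cover only array-to-array spread, possibly of a technical kind. Between 8495 and 8555 probes had a value on each array, and array medians lay between -0.0013 and 0.0007. Array 1C was the widest, with an SD of 1.04 over all its probes against 0.47 to 0.61 on the other 5 arrays. A ratio holds no level, so neither the amount of a collagen mRNA nor the presence of smooth muscle markers can be read from it, and fewer cells of a type and less RNA per cell cannot be told apart. Overexpression of the receptor gene itself was not checked here.

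Each fibrillar collagen molecule is a triple helix of long chains. The chains are hydroxylated and folded in the endoplasmic reticulum, secreted as procollagen, trimmed of their end peptides, assembled into fibrils and crosslinked by lysyl oxidases. Type I collagen, to which Col1a1 gives the main chain, and type III collagen, made of Col3a1 chains alone, form the bulk of fibrils in the airway wall. Type V collagen, from Col5a1 and Col5a2, starts fibrils and limits their width, and Col11a1 encodes a chain of type XI collagen, its relative in cartilage. Airway smooth muscle cells secrete matrix in culture, and transforming growth factor beta is a well-known inducer of fibrillar collagen genes. Col3a1 and Col5a2 are neighbours on chromosome 1, with no other protein-coding gene of the RefSeq table between them; the other 3 genes lie on chromosomes 11, 2 and 3.

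Promoter sequences were matched for 3 of the 5 genes, in the RefSeq table of build GRCm38.p6. They are shown because their genes had ratios of -0.96 to -1.29 while the bases before their start sites differ widely. Each run holds the 250 bases before the annotated start, all on the plus strand: Col3a1 at chr1:45311288-45311537, Col5a1 at chr2:27886175-27886424 and Col11a1 at chr3:114030290-114030539. Capitals mark matches on either strand to the CCAAT box (CCAAT or ATTGG), the GC box (GGGCGG or CCGCCC), the TATA box (TATAAA or TTTATA), the core SMAD motif (CAGAC or GTCTG) and the short cyclic AMP response motif (TGACG or CGTCA).
Col3a1: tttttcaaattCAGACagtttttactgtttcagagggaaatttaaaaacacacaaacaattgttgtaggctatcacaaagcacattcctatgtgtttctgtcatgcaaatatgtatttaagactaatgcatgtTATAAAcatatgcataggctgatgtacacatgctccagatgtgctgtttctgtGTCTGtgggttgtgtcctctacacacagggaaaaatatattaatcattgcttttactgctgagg
Col5a1: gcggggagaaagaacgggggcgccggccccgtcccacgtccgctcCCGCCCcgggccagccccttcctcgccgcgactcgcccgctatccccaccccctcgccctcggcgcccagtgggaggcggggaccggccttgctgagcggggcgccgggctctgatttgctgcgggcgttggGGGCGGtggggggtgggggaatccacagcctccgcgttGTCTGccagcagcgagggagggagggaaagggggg
Col11a1: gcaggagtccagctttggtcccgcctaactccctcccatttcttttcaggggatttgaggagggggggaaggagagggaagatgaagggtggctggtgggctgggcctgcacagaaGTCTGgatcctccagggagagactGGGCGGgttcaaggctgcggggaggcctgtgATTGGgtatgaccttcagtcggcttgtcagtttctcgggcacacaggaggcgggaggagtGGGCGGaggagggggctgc

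The share of G and C was 35.2% before Col3a1, 76.4% before Col5a1 and 62.4% before Col11a1, against a median of 52.4% over 32851 promoters of the same table. The SMAD motif was found before all 3 genes, from 64, 35 and 134 bases before the start of Col3a1, Col5a1 and Col11a1, with a second match 239 bases before Col3a1. It stands before 42.2% of all promoters. The GC box, before 32.7% of all promoters, was found before Col5a1 and Col11a1. The CCAAT box was found before Col11a1 (33.8% of all promoters) and the TATA box before Col3a1 (12.4%), from 117 bases before its start. The cyclic AMP motif, before 17.8% of all promoters, was found before 0 of the 3 genes. These are matches of letters, not binding sites.

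Ratios below 0 ran through the family. Of the 9 probes, 8 were below 0 on all 6 arrays, which holds for 8.22% of the 8430 probes with 6 values; since the genes were chosen by these ratios, nothing is read from that count. The exception was the Col1a1 probe, above 0 on array 2A. In the gene-level fit, limma with a transgenic and a dye term, the log2 ratio was -1.29 ± 0.10 for Col3a1 (2.45-fold lower), -1.21 ± 0.31 for Col1a1 (2.31-fold), -1.10 ± 0.09 for Col11a1 (2.14-fold), -0.96 ± 0.07 for Col5a1 (1.95-fold) and -0.56 ± 0.07 for Col5a2 (1.47-fold; SE, n = 6 arrays each). The fitted ratio gives both dye orientations equal weight, whatever their number of arrays.

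**Figure D1:**
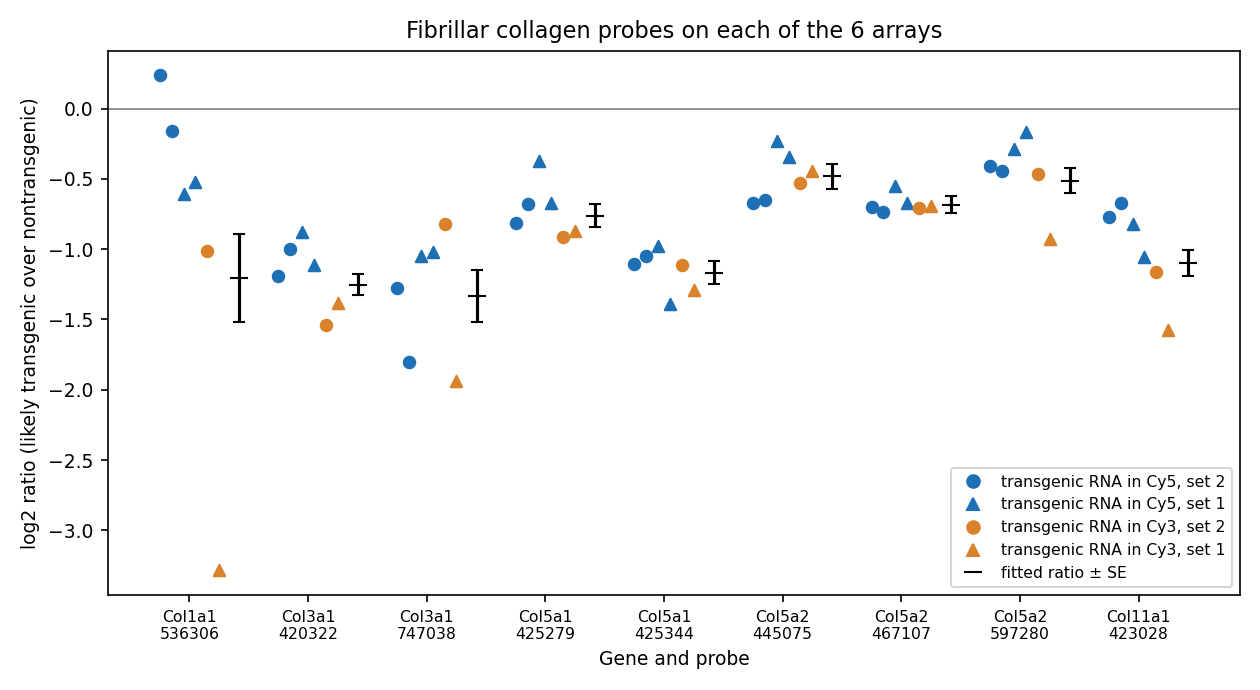
Log2 ratio (vertical axis) of the 9 fibrillar collagen probes (horizontal axis) on each array, with transgenic RNA in Cy5 in blue and in Cy3 in orange, set 2 as circles and set 1 as triangles; the black mark is the fitted ratio ± SE. The Col5a1 and Col5a2 probes lie below 0 on every array, while the Col1a1 probe spreads from 0.24 on array 2A to -3.28 on array 1C.

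Col3a1, the chain of type III collagen, had the lowest fitted ratio. Its probe 420322 read -1.19, -0.999, -0.88 and -1.11 on arrays 2A, 2B, 1A and 1B, against -1.54 and -1.38 on the swapped arrays 2C and 1C. The 2 swapped arrays were the lowest, and no array came closer to 0 than 1A. Probe 747038 read -1.28, -1.80, -1.05 and -1.02 on arrays 2A, 2B, 1A and 1B, against -0.82 and -1.94 on arrays 2C and 1C. Here 1 array of each set and of each orientation was far below the others, so the spread was wider, with an SD of 0.45 against 0.24 for probe 420322. The probes gave fitted ratios of -1.25 ± 0.07 (420322) and -1.33 ± 0.19 (747038). They differed by 0.13 ± 0.53 over the arrays (420322 minus 747038, SD, n = 6), less than their spread.

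Col1a1, the main chain of type I collagen, was the least stable of the family. Its single probe 536306 read 0.24, -0.16, -0.61 and -0.52 on arrays 2A, 2B, 1A and 1B, against -1.01 and -3.28 on arrays 2C and 1C. Both swapped arrays lay below all 4 arrays with transgenic RNA in Cy5, without overlap, and 1C lay far below 2C. How many of all probes split by orientation or by set in this way was not counted. Nothing is therefore read from such a split, for this or any other collagen probe. The mean was -0.26 with transgenic RNA in Cy5 and -2.15 with transgenic RNA in Cy3. Ranked within each array, the probe stood at 78.0%, 30.7%, 6.23% and 13.5% from the bottom on arrays 2A, 2B, 1A and 1B, against at 1.09% and 0.788% on arrays 2C and 1C. The fitted ratio of -1.21 became -0.64 ± 0.18 without array 1C, -1.77 ± 0.18 without array 2C and -0.26 ± 0.16 when the swapped arrays were both left out.

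Averaged over their probes, the type V collagen chains had the smallest SDs over the arrays, 0.15 for Col5a1 and 0.13 for Col5a2. Single probes were not all tight: Col5a2 probe 597280 had an SD of 0.26, against 0.24 for Col3a1 probe 420322. For Col5a1, probe 425344 read -1.11, -1.05, -0.98 and -1.39 on arrays 2A, 2B, 1A and 1B, against -1.11 and -1.29 on arrays 2C and 1C. Probe 425279 of the same gene read -0.82, -0.68, -0.38 and -0.67 on arrays 2A, 2B, 1A and 1B, against -0.91 and -0.87 on arrays 2C and 1C. The orientations overlapped for the first probe and not for the second, whose swapped arrays were the lowest. Probe 425279 stood above probe 425344 on 6 of 6 arrays, by 0.43 ± 0.19 (SD, n = 6), so the size of the Col5a1 ratio depends on the probe: the fitted ratios were -0.76 ± 0.08 (425279) and -1.17 ± 0.08 (425344).

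For Col5a2, the other chain of type V collagen, probe 467107 read -0.70, -0.74, -0.55 and -0.67 on arrays 2A, 2B, 1A and 1B, against -0.71 and -0.70 on arrays 2C and 1C. Its SD of 0.065 was the smallest among the 9 probes. Probe 445075 read -0.67, -0.65, -0.23 and -0.34 on arrays 2A, 2B, 1A and 1B, against -0.53 and -0.44 on arrays 2C and 1C. On this probe all 3 arrays of set 2 were below all 3 arrays of set 1. Probe 597280 read -0.41, -0.44, -0.29 and -0.16 on arrays 2A, 2B, 1A and 1B, against -0.47 and -0.93 on arrays 2C and 1C. On this probe the swapped arrays were the lowest, with array 1C apart. Fitted ratios of the 3 probes were -0.68 ± 0.06, -0.48 ± 0.09 and -0.51 ± 0.09 in that order. Probe 467107 lay below probe 445075 on 6 of 6 arrays, by 0.20 ± 0.12, and below probe 597280 on 5 of 6, by 0.23 ± 0.25 (SD, n = 6); the second difference was less than its spread. Probe sequences were not used here, so which part of a transcript each probe reads is unknown.

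Col11a1, the type XI chain, read -0.77, -0.67, -0.82 and -1.06 at its single probe 423028 on arrays 2A, 2B, 1A and 1B, against -1.16 and -1.58 on arrays 2C and 1C. The swapped arrays were the lowest, as for Col1a1 but over a smaller range. The mean was -0.83 with transgenic RNA in Cy5 and -1.37 with transgenic RNA in Cy3. As a check for cartilage, which lies next to the muscle in the trachea, the ratios of 3 other cartilage genes were examined, of which Comp and Sox9 are also in lists of collagen biology. Acan, the cartilage proteoglycan aggrecan, was at -0.29 ± 0.10, Comp at -0.25 ± 0.10 and Sox9, the cartilage transcription factor, at -0.01 ± 0.06. None of the 3 passed (limma, lowest adjusted p = 0.133), and their part in the Col11a1 ratio was not tested.

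By fitted ratio the order was Col3a1, Col1a1, Col11a1, Col5a1 and Col5a2, the lowest first. The place of Col1a1 depends on the weighting of the orientations. By plain mean over the 6 arrays it was at -0.89, above Col11a1 (-1.01) and Col5a1 (-0.94), and it was below Col11a1 on 1 of 6 arrays. Neighbours were compared by the plain mean of their differences over the arrays. Col3a1 and Col1a1 (-0.36 ± 1.10), Col1a1 and Col11a1 (0.12 ± 0.94) and Col11a1 and Col5a1 (-0.07 ± 0.26) differed by less than the SD over the 6 arrays. Col5a1 was below Col5a2 on 6 of 6 arrays, by -0.40 ± 0.13 (SD, n = 6), as means over the probes of each gene. The 2 Col5a1 probes differed from each other by 0.43 ± 0.19 (SD). A difference between the type V chains thus cannot be told from one between probes. The upper Col5a1 probe (-0.76 ± 0.08) and the lowest Col5a2 probe (-0.68 ± 0.06) were close to each other.

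The dye term, Cy5 over Cy3, comes from the same arrays as the ratios that chose the genes. With 4 arrays in one orientation and 2 in the other, the fitted dye and transgenic terms are not independent. The dye terms are therefore a description, and nothing is read from their signs or from the counts of probes that passed. They lay above 0 for the 9 probes, from 0.0058 ± 0.089 for Col5a2 probe 445075 to 0.94 ± 0.31 for Col1a1, and 4 of the 9 lay below 0 once the arrays were brought to 1 scale (Col3a1 probe 747038 at -0.12, Col5a1 probe 425344 at -0.025, Col5a2 probes 445075 and 467107 at -0.020 and -0.014). Without array 1C, Col3a1 probe 747038 was at -0.23. By limma 0 of the 9 probes passed the threshold for dye, beside 0% of the 8500 probes, and 3 of the 9 and 1546 of the 8500 had an unadjusted p under 0.05. The dye terms of Col11a1 (0.27 ± 0.09) and of Col3a1 probe 420322 (0.21 ± 0.07) were the next in size after Col1a1. The Col1a1 dye term hung on the 2 swapped arrays: it was 0.37 ± 0.18 without array 1C and 1.51 ± 0.18 without array 2C. In each case 1 swapped array alone stood for transgenic RNA in Cy3, with its spread assumed to be that of the other arrays, so only the sizes are given.

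Whether the ratios differed between the sets, which each hold 2 arrays with transgenic RNA in Cy5 and 1 with it in Cy3, was tested. The difference, set 2 minus set 1, was largest for Col1a1, whose mean was -0.31 on the arrays of set 2 and -1.47 on those of set 1 (1.16 ± 0.39, adjusted p = 0.171). It was 0.60 without array 1C or without array 2C, and 0.68 with the arrays brought to 1 scale. Col11a1 averaged -0.87 in set 2 and -1.15 in set 1 (0.29 ± 0.11, adjusted p = 0.213), and Col5a2 probe 445075 averaged -0.62 in set 2 and -0.34 in set 1 (-0.28 ± 0.10, adjusted p = 0.200). The other 6 probes had differences between -0.16 and 0.13. These sizes and directions moved with the scale of the arrays: brought to 1 scale, the difference was -0.13 for Col11a1, -0.48 for Col5a2 probe 445075, -0.60 for Col3a1 probe 420322 and -0.46 for Col5a1 probe 425279, and it was below 0 for every probe but that of Col1a1. By limma 0 of the 9 probes passed, beside 0.0118% of the 8500 probes, and 2 of the 9 and 2081 of the 8500 had an unadjusted p under 0.05.

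**Figure D2:**
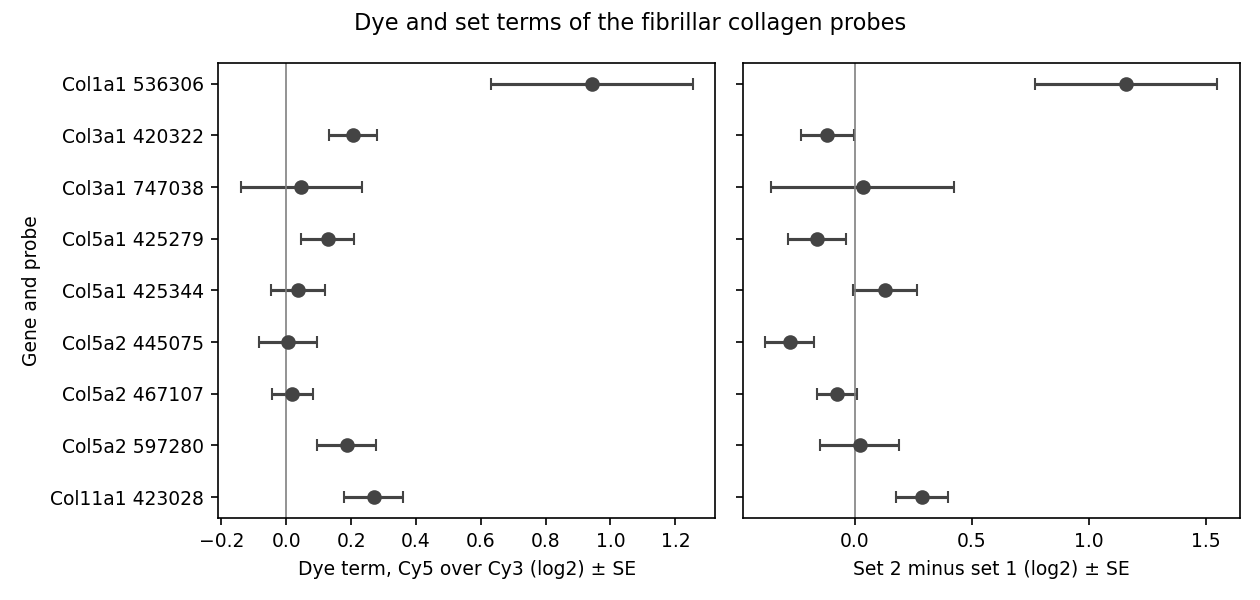
Dye term (left, Cy5 over Cy3) and difference between sets (right, set 2 minus set 1) of each fibrillar collagen probe, both in log2 units with the SE of the limma fit over 6 arrays. Col1a1 stands apart in both panels, at 0.94 and 1.16; the dye terms drawn are above 0, and 4 of them lie below 0 with the arrays brought to 1 scale.

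Of the other collagen genes in the lists 7 were measured, and 0 passed the test of the transgenic ratio by limma. Col11a2, a partner chain of Col11a1 in type XI collagen, read -0.14, -0.14, -0.23 and -0.18 on arrays 2A, 2B, 1A and 1B, against -0.23 and -0.04 on arrays 2C and 1C. It was below 0 on 6 of 6 arrays, yet its fitted ratio of -0.15 ± 0.06 did not pass (adjusted p = 0.175). Col27a1, a fibrillar collagen of cartilage, was at -0.06 ± 0.08, with values on both sides of 0. The list of non-fibrillar collagens held 5 measured genes, of which 0 passed by limma, with ratios of -0.30 ± 0.09 for Col6a1, a chain of the beaded filaments around cells, -0.24 ± 0.22 for Col12a1 and 0.07 ± 0.13 for Col14a1, both fibril-associated collagens, 0.16 ± 0.08 for Col9a1 and 0.32 ± 0.16 for Col23a1 (lowest adjusted p = 0.105). Tested as single probes, Col6a1 passed as well. The median of these 5 genes was 0.07, beside 0.0018 over all rows. Col6a6, a measured non-fibrillar collagen that is in no list and was added after its value was seen, was at 0.66 ± 0.38 (adjusted p = 0.306), the highest ratio among the measured collagens.

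**Figure D3:**
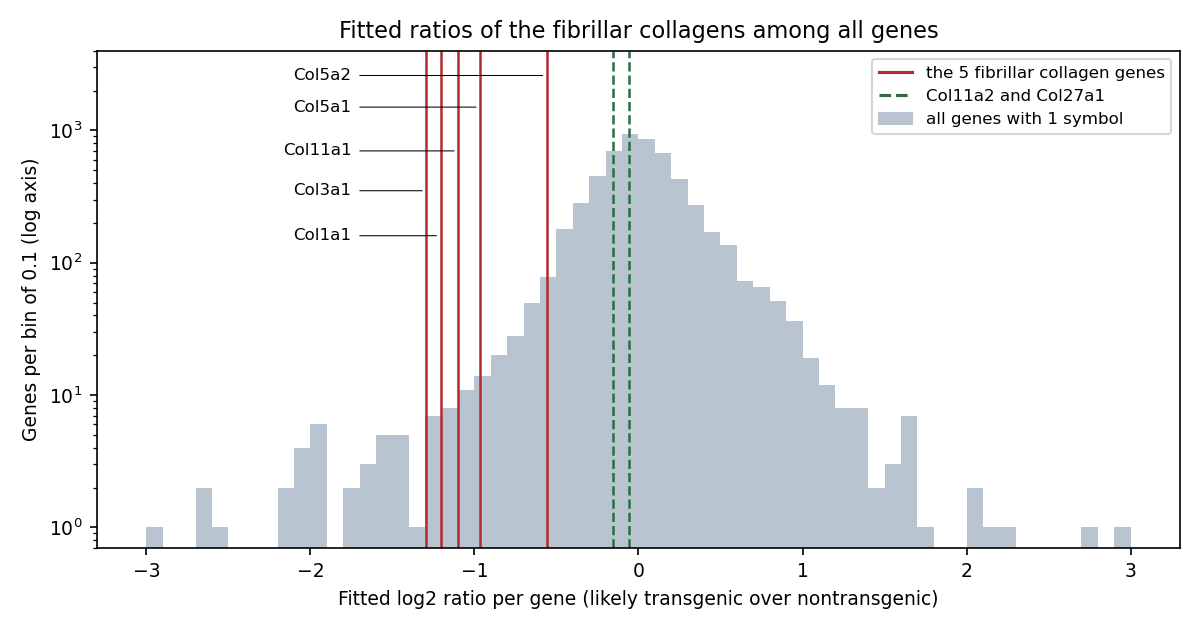
Number of genes (vertical axis, log scale) by fitted log2 ratio (horizontal axis, bins of 0.1; genes beyond -3 or 3 are drawn at the ends). The 5 fibrillar collagen genes, in red, stand in the lower tail between -1.29 and -0.56, and Col11a2 and Col27a1, dashed, stand near the middle.

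Genes that make, cut, assemble, bind and degrade collagen were then counted. In the gene-level fit 4.03% of 6807 rows rose and 3.09% fell (adjusted p under 0.05), 7.11% in all. Of 53 measured genes in 8 lists, which hold none of the 5 collagens, 6 rose and 8 fell, and the median ratio was -0.015. The lists were written with earlier results of these data known, so their counts describe these genes and are no independent evidence of a direction.

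Among 9 genes of chain modification, folding and export, P3h1, a prolyl hydroxylase of the collagen chains, fell and 0 rose (median -0.08). P3h1 read -0.43, -0.47, -0.06 and 0.06 on arrays 2A, 2B, 1A and 1B, against -0.64 and -0.93 on arrays 2C and 1C. Like Col1a1 it was lowest on the swapped arrays, and its ratio of -0.51 ± 0.10 (adjusted p = 0.0434) became -0.23 without both swapped arrays (adjusted p = 0.233). Plod1 (-0.20 ± 0.06), Plod3 (0.09 ± 0.07), which hydroxylate lysines of the chains, Ppib (0.12 ± 0.13), a prolyl isomerase that works beside P3h1, and Colgalt1 (0.13 ± 0.12), a collagen galactosyltransferase, did not pass.

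Of the 2 measured genes of end-peptide cleavage, Bmp1, the protease that removes the C-terminal peptide of procollagens, fell. It read -0.42, -0.41, -0.34 and -0.55 on arrays 2A, 2B, 1A and 1B, against -0.78 and -0.61 on arrays 2C and 1C. The ratio was -0.56 ± 0.07 (1.48-fold, adjusted p = 0.00962, below 0 on 6 of 6 arrays), and its 3 probes gave -0.46, -0.73 and -0.50, each past the threshold. The call held with any 1 array left out (adjusted p up to 0.0467). Pcolce2, which enhances that cleavage, was at -0.29 ± 0.08 (adjusted p = 0.0767).

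Crosslinking and fibril assembly genes went both ways, with 3 of 12 risen, 1 fallen and a median of 0.39. Lox, the enzyme that crosslinks collagen, read 0.34, 0.42, 0.71 and 0.56 on arrays 2A, 2B, 1A and 1B, against 0.51 and 0.94 on arrays 2C and 1C. It stood above 0 on each array on which the Col3a1 and type V probes stood below 0, at 0.62 ± 0.09 (adjusted p = 0.0179). Thbs2, a matricellular protein that affects fibril shape (0.83 ± 0.11, adjusted p = 0.0131), and Tnc, tenascin C (1.57 ± 0.14, adjusted p = 0.00450), rose. Fn1, the fibronectin on which cells lay down collagen, fell, with a narrow range of -0.90 to -0.76 over the 6 arrays (-0.83 ± 0.06, adjusted p = 0.00411).

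The other 8 genes of this list did not pass and lay on both sides of 0. Below 0 were Comp (-0.25 ± 0.10), Tnxb, a tenascin (-0.30 ± 0.16), and Loxl2, a relative of Lox (-0.17 ± 0.11), and Tgfbi was at 0.20 ± 0.08. Lum, lumican, was at 0.70 ± 0.17 and above 0 on 6 of 6 arrays (adjusted p = 0.0622). Bgn, biglycan, was at 0.16 ± 0.06 (adjusted p = 0.182). Fmod, fibromodulin, was between 0.09 and 0.19 on 5 arrays and at 1.93 on array 1C, and its fitted ratio of 0.58 ± 0.23 (adjusted p = 0.172) rests on that array. Dpt, dermatopontin, was between 1.83 and 2.27 on 5 arrays and at -1.01 on array 1B (1.67 ± 0.46, adjusted p = 0.0856); without array 1B it passed.

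Collagen receptors showed 0 calls among 3 measured genes, with Itga11, an integrin chain for collagen, at -0.01 ± 0.06, Ddr2, a tyrosine kinase that binds fibrillar collagen, at 0.11 ± 0.09 and Ddr1 at 0.39 ± 0.11 (lowest adjusted p = 0.0875). Of 7 genes of collagen breakdown and its inhibitors, 2 rose and 1 fell (median 0.45). Ctsl, a lysosomal cathepsin, rose (0.91 ± 0.16, adjusted p = 0.0300), as did Ctsb (0.45 ± 0.06, adjusted p = 0.0160), although the Ctsb probes gave 0.71 and 0.18 and the second did not pass alone. Timp3, an inhibitor of metalloproteinases, fell (-0.55 ± 0.10, adjusted p = 0.0326). The other measured inhibitors of this kind did not pass and lay above 0. Timp2 was at 0.61 ± 0.17, above 0 on every array (limma, adjusted p = 0.0884), and Timp4 was at 0.07 ± 0.15. Mmp14, a membrane-bound collagenase, was above 0 on 6 of 6 arrays, from 0.45 to 2.26, and did not pass (1.21 ± 0.30, adjusted p = 0.0685), and Mmp2 was at 0.09 ± 0.11. Each of the 3 calls in this list was lost with any of at least 4 of the 6 arrays left out.

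Among 13 regulators of collagen transcription, 1 rose and 4 fell, with 11 ratios below 0 and a median of -0.18. Over all 6807 rows, 3384 ratios were below 0. The 11 include ratios near 0, such as Sox9 at -0.01. Since the list was written with earlier results of these data known, nothing is read from that count. Tgfb2, a transforming growth factor beta ligand, ranged from -1.29 to -0.63 over the 6 arrays (-1.03 ± 0.09, adjusted p = 0.00450), and Tgfbr1, the signalling receptor, from -1.04 to -0.65 (-0.88 ± 0.07, adjusted p = 0.00411). Pmepa1, which that factor induces and which dampens its signal, read -1.01, -0.84, -0.94 and -1.15 on arrays 2A, 2B, 1A and 1B, against -1.10 and -1.79 on arrays 2C and 1C (-1.22 ± 0.11, adjusted p = 0.00450). Ets1, a transcription factor, fell by 0.67 ± 0.11 on the log2 scale (adjusted p = 0.0210), and Tgfbr3, the co-receptor betaglycan, rose (1.34 ± 0.06, adjusted p = 0.00136). Smad3, which carries the signal to collagen promoters, was at -0.56 ± 0.13 (adjusted p = 0.0551), Smad4 at -0.05 ± 0.07 and Ccn2, a classical target of the factor, at 0.02 ± 0.18. The CCAAT-binding subunits Nfya (-0.49 ± 0.16) and Nfyb (-0.18 ± 0.07) and the GC box factor Sp1 (-0.18 ± 0.10) did not pass.

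**Figure D4:**
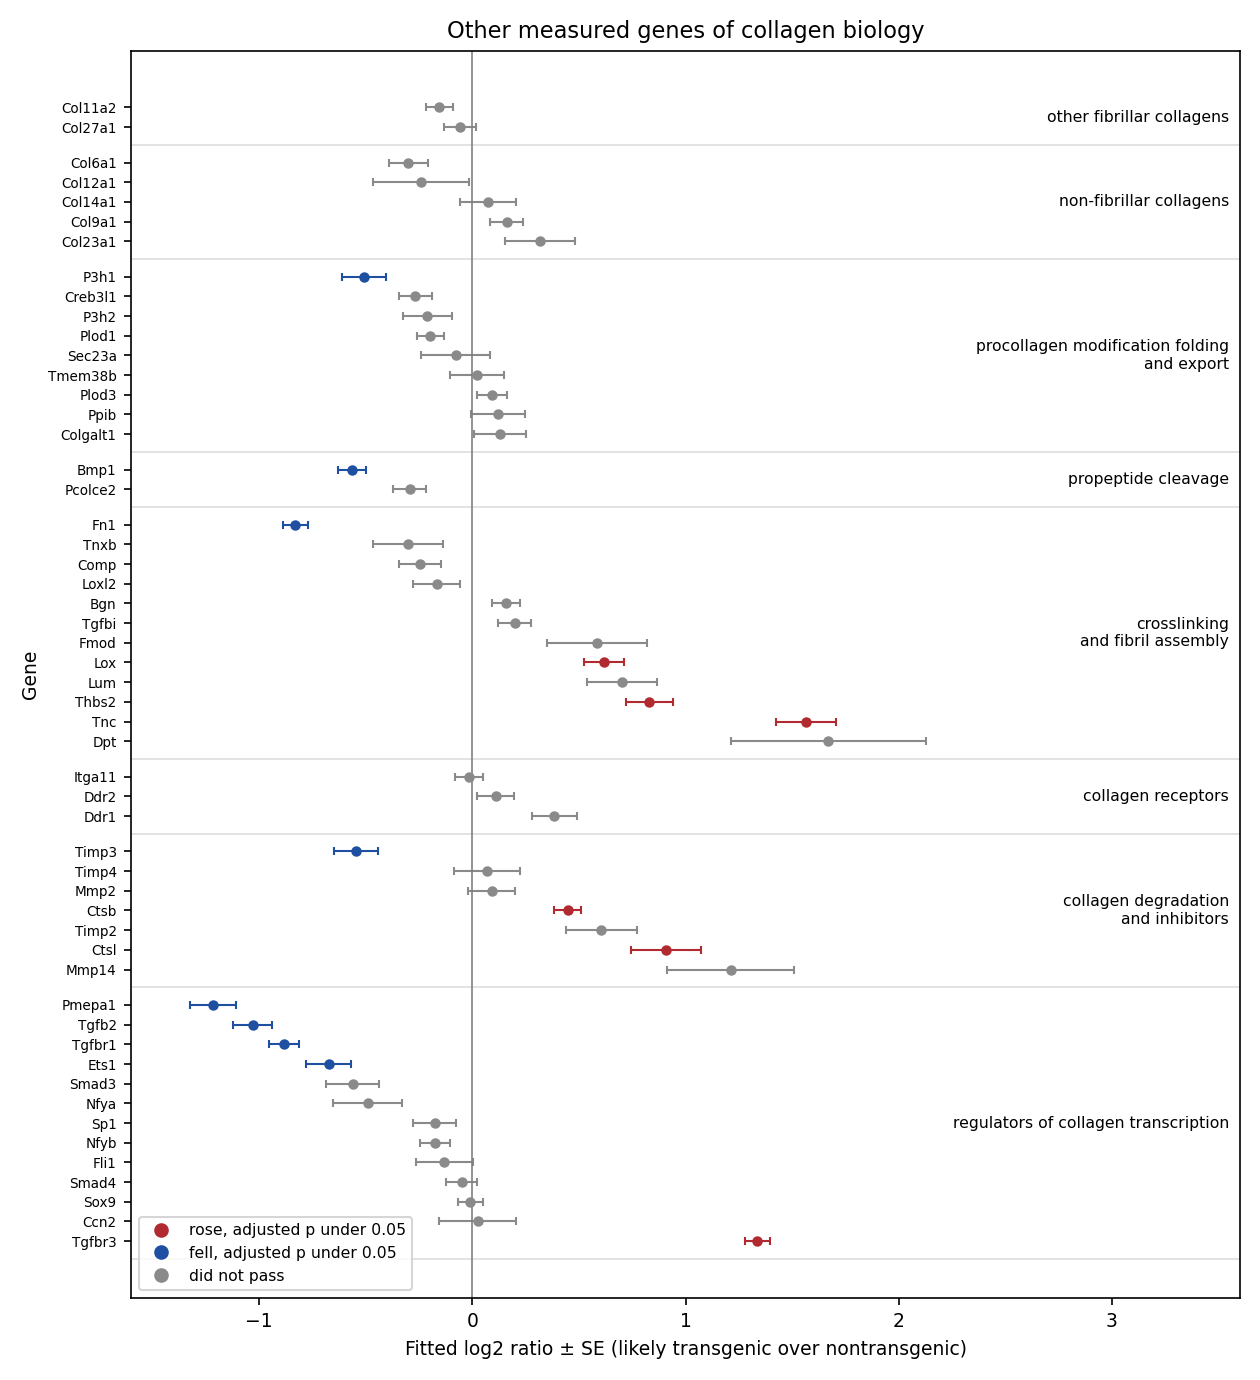
Fitted log2 ratio ± SE (horizontal axis) of the 53 other measured genes of collagen biology, grouped by list (vertical axis); red genes rose, blue genes fell and grey genes did not pass. Calls lie on both sides of 0, with Pmepa1, Tgfb2 and Tgfbr1 lowest and Tnc and Tgfbr3 highest among the genes that passed.

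With 1 array left out in turn, 6 of the 14 calls were lost at least once. Bmp1, Fn1, Thbs2, Tnc, Pmepa1, Tgfb2, Tgfbr1 and Tgfbr3 passed with each of the 6 arrays left out in turn. P3h1 lost the call without any of 1A, 1B, 2A, 2B and 1C, as did Ctsl (adjusted p up to 0.169 and 0.130). Lox, Ets1 and Ctsb lost it without 1B, 2A, 2B and 1C (adjusted p up to 0.0721, 0.0763 and 0.0666), and Timp3 without 1A, 1B, 2A and 2B (up to 0.102). Over these fits the ratios stayed between -0.58 and -0.44 for P3h1, 0.75 and 1.07 for Ctsl, 0.51 and 0.73 for Lox, -0.72 and -0.63 for Ets1, 0.40 and 0.49 for Ctsb, and -0.68 and -0.41 for Timp3.

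The genes most like the family over the arrays were sought among 5614 genes with 1 symbol and 6 values, by the root mean square difference between a gene's ratios and the mean of the 5 collagen genes. That mean was -0.67, -0.74, -0.69 and -0.81 on arrays 2A, 2B, 1A and 1B, against -0.99 and -1.66 on arrays 2C and 1C. Outside the family the nearest were Zfp703 (0.11), Lrig1 (0.13), Itgb3, the beta3 integrin (0.17), Syt13 (0.17), Slc5a3, an inositol transporter (0.20), Tpgs2 (0.23), Wwp1, a ubiquitin ligase (0.24) and Pmepa1 (0.24). All 8 are read by 1 probe each. Each had its lowest value on array 1C, as did the family mean that they were picked to resemble, so nothing is read from that. Of the family, Col11a1 (0.15) and Col5a1 (0.28) were the closest to the mean and Col1a1 (0.80) the farthest. The low mean on 1C came in part from Col1a1: with Col1a1 left out of the mean, Lrig1, Slc5a3, Syt13, Itgb3 and Tpgs2 stayed among the 8 nearest of all genes, and Zfp703, Pmepa1 and Wwp1 ranked 12, 18 and 24. Likeness over 6 arrays that share their RNA sources is a description.

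Markers of the smooth muscle and of other cell types were examined beside the collagens. Per the labels, staining for alpha-actin found over 90% smooth muscle cells in such cultures. The markers that passed were Thy1, Mfap5, Cnn1 and Cdh1, which all rose, beside 4.03% of all rows that rose and 3.09% that fell. The 3 endothelial and the 3 cartilage genes all had ratios below 0 and did not pass. With so few genes, no direction is read from the marker calls. Of 5 measured fibroblast genes, which include Lum and Dpt, Thy1 (2.73 ± 0.21) and Mfap5 (0.81 ± 0.07) rose and 0 fell, with a range of -0.02 to 2.73 (median 0.81). Of 3 smooth muscle genes Cnn1, calponin, rose (0.59 ± 0.10), and Smtn and Cald1 were at -0.05 ± 0.08 and -0.12 ± 0.06. Of 3 epithelial genes Cdh1 rose (0.32 ± 0.06), and of 3 endothelial and 4 leukocyte genes 0 passed by limma (medians -0.52 and -0.08, lowest adjusted p 0.0957 and 0.166). Levels of these markers were not measured by a ratio, and their part in the collagen ratios was not tested.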

How the data were processed

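Two-colour arrays were analysed from the deposited table of log2 ratios, with a single value for a probe on an array. According to the labels' protocols, total RNA was reverse transcribed, labelled with Cy3 or Cy5 and hybridised competitively to printed slides; how slides were scanned, corrected and normalized, and which way the ratio runs, is not stated in these sources. No spot intensity entered the work; precision is limited by the number of arrays. The lowest deposited log2 value, -6.64, equals a ratio of 0.01; no collagen probe lay there.

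Samples were grouped by the dye of the transgenic RNA, read from the titles (4 arrays Cy5, 2 arrays Cy3). Of 8734 probes, 7540 had 1 symbol, 14 several and 1180 none in the platform annotation. For the gene-level fit, probes sharing a single symbol were averaged array by array, leaving 6807 rows measured in both orientations and on 4 or more arrays, unnamed probes included; the probe-level fit used 8500 probes. Both used limma 3.58.1 in R 4.3.3 (lmFit, eBayes) with transgenic and dye terms, plus a set term for the set difference, and Benjamini-Hochberg adjustment over all rows. The fit was tested on simulated data. Promoters and figures used Python 3.11.15, pandas 2.3.3 and matplotlib 3.10.9. The alternatives were probe rows, floor values, filters, dye term, orientation, scale, sets, weights, robust variance and single arrays.

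The collagens and the lists were chosen with earlier results of these data known. Genes named are the 5 collagens, list and marker genes past the threshold, other fibrillar collagens and the 8 most alike genes; further list genes were named after their values were seen, for their known role.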

Additional observations from a re-analysis of the deposited data

Results flagged for a closer look

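Of 52 checks for an array far from the others of its group, 4 found one; chance alone gives about 1 in 20. The Col1a1 probe 536306 was at -3.28 on array 1C, against -1.01 to 0.24 on the other 5 arrays. The Col5a2 probe 467107 was at -0.55 on array 1A, against -0.74 to -0.67 on the other 5, so its gap is wide only beside a narrow range. Pmepa1 was at -1.79 on array 1C, against -1.15 to -0.84 on the other 5. Thbs2 was at 1.29 on array 1B, against 0.87 to 0.90 on the other 3 arrays with transgenic RNA in Cy5.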

How the results depend on the processing

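The 5 collagen ratios stayed below 0 and moved by less than their SD over the arrays under every alternative run on them but 1. For Col1a1 that SD, 1.25, is larger than the size of its ratio, so the second criterion says little. Its ratio went from -1.21 to -0.26 with only the 4 arrays with transgenic RNA in Cy5. The 1 exception turns the sign of the swapped arrays. The fitted ratios were then 0.13 for Col3a1, 0.94 for Col1a1, 0.27 for Col11a1, 0.082 for Col5a1 and 0.070 for Col5a2. By construction the transgenic and dye terms trade places. The dye terms are then the probe ratios that chose the genes, given without a test. Under this alternative they were -1.25 and -1.33 for Col3a1, -0.76 and -1.17 for Col5a1 and -1.21 for Col1a1. For Col5a2 they were -0.48, -0.68 and -0.51, and for Col11a1 -1.10. Of the 14 called pathway genes, 9 changed sign under it, without passing: Bmp1 (0.13), Ets1 (0.15), Fn1 (0.017), Lox (-0.11), P3h1 (0.28), Pmepa1 (0.23), Tgfb2 (0.12), Tgfbr1 (0.072) and Tnc (-0.024); 1 of 6807 rows and 0 of the 53 pathway genes passed.

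Counts moved more. Against 484 rows and 14 pathway genes, the 4 arrays with transgenic RNA in Cy5 gave 1071 rows, a fixed set term 1168 rows and 23 pathway genes, and array weights 194 rows and 9 pathway genes. A replicate block, the set as a random effect (correlation 0.295), left 197 rows, and 10 of the 14 pathway genes; Ctsb, Ctsl, P3h1 and Timp3 did not (adjusted p of 0.0529, 0.0528, 0.138 and 0.115). The labels do not say that a set number marks a shared culture or mouse. With each set averaged (n = 2), 0 rows and 0 pathway genes passed by limma and 728 rows had an unadjusted p under 0.05. Leaving out each array in turn gave 169 to 1689 rows (250, 204, 169, 175, 190 and 1689 without 1A, 1B, 2A, 2B, 1C and 2C), 8 to 21 pathway genes, and 0 to 1 collagen probes past the threshold for dye. The cause of these shifts was not tested. For the set difference 0 of the 9 probes passed under every alternative run on it.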
